A study of Mus musculus with 7 samples.

Results

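The genes described here are 38 genes of the autophagy machinery, out of 50686 genes with a row in every library. They were chosen by symbol from a list, with earlier results of these data known. They were measured in microglia sorted from the brains of young and old mice after cerebral ischemia, and the question was how their mRNA levels compared between the ages. Each of the 38 symbols matched 1 row. All 38 passed the filter on low values, which asked for an expected count over 10 in 1 or more libraries. Of these 37 were autosomal and entered the test, with 17559 genes in all. Atg4a lies on chromosome X, which the filter on chromosomes left out, so its values come from a fit that kept chromosomes X, Y and M.

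Autophagy wraps a portion of cytoplasm in a double membrane and delivers it to lysosomes for digestion. The ULK1 kinase complex starts the process when nutrients fall, and the kinase complex mTORC1 holds it back when amino acids are plentiful. A lipid kinase complex built around Beclin 1 then marks the growing membrane, called the phagophore, with phosphatidylinositol 3-phosphate, WIPI proteins read that mark, and ATG9A vesicles and ATG2 proteins supply membrane lipid. A pair of ubiquitin-like conjugation reactions attaches proteins of the Atg8 family (LC3 and GABARAP) to the lipid phosphatidylethanolamine, and cargo receptors such as p62 tie ubiquitin-tagged material to them. In microglia, autophagy and the related LC3-associated phagocytosis take part in degrading engulfed debris and stored lipid.

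The series holds 7 libraries of polyadenylated RNA from C57BL/6 male mice bought from Janvier, 4 from young animals of 3 to 4 months (14C, 18C, 23C and 29C in the sample titles) and 3 from old animals of 21 to 22 months (2posI, 3posI and 4posI). All 7 came from forebrain taken 4 days after transient occlusion of the middle cerebral artery, and cells were sorted by CD11b, CD45 and a positive stain with Bodipy, a dye of neutral lipid, so both ages carry the ischemia and the lipid gate. The labels name no engineered allele and state that no drug was given. The labels give an identifier to each library but do not say that each is 1 animal, so the errors and p-values below measure the spread between these libraries. Wherever values of single libraries are given, they stand in the order 14C, 18C, 23C and 29C for young and 2posI, 3posI and 4posI for old.

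Summed expected counts ran from 36574083 to 53002386 per library. All 12 microglia markers, among them P2ry12 and Tmem119, were detected in every library, at a summed level of 14883 to 21880 TPM (abundance per transcript length, scaled to the same total in each library) in young libraries and 7302 to 16334 in old ones. The lowest sum belonged to the old library 3posI, in which 8 markers of border macrophages and monocytes summed to 2592 TPM against 70.2 to 297 in young libraries and 244 and 176 in the other old libraries. The largest parts of the sum in 3posI were Chil3 at 1217, Pf4 at 775 and Ly6c2 at 320 TPM. The border macrophage markers Mrc1, Lyve1 and Cd163 stood there at 19.4, 7.3 and 7.61 TPM, near the 15.5, 6.76 and 7.88 TPM of the young library 14C. The 6 T and NK cell markers, 3 of them under 1 TPM in every library, summed to 0.23 to 0.37 TPM in young and 0.58 to 5.65 TPM in old libraries, and the 6 neutrophil markers ranged from 13.1 to 307 TPM in young and from 86.2 to 303 TPM in old. The B cell, oligodendrocyte, astrocyte and neuronal marker sums overlapped between ages, and the 6 endothelial and pericyte markers summed to 34.9 to 86.1 TPM in young and 24.2 to 38.6 TPM in old. In bulk RNA, fewer cells of a type and less RNA per cell cannot be told apart.

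None of the 37 tested autophagy genes had an adjusted p under 0.05 by edgeR (quasi-likelihood test, Benjamini-Hochberg adjustment), while 0.803% of all genes did (141 of 17559, 0.57% higher and 0.233% lower in old). The smallest adjusted p was 0.0973, of Atg16l2. At an unadjusted p under 0.05 there were 8 members, which is 21.6% of those tested against 18.9% of all genes. Only Ulk1 and Atg5 of these were higher in old microglia (5.41% of members, 10.1% of all genes), and Atg9a, Wipi2, Atg16l1, Atg16l2, Atg14 and Atg2a were lower (16.2% of members, 8.79% of all genes). Among the 37, 16 log2 fold changes were above 0 and 21 below, with 51.2% of all genes below 0. Their median was -0.05, beside -0.01 over all genes, and 33 of the 37 lay within 0.5 of 0 on the log2 scale (89.2%, against 63.7% of all genes). These 2 shares are not of genes at like levels. Every member had an expected count of 200 or more in each library, while the filter asked for over 10 in only 1 library. Over all genes the estimates ran from -12.11 to 12.67. The share among genes with counts like the members' was not computed. Without 3posI no member passed the adjusted threshold, 8 had an unadjusted p under 0.05 (17.6% of all genes did in that fit) and the median was -0.04.

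Old and young libraries did not overlap in CPM (counts scaled to library size by the trimmed mean of M values) for 7 of the 37 members (18.9%, against 17.7% of all genes). Of these, Atg14, Wipi2, Atg9a, Atg16l1 and Atg16l2 were lower in old (13.5% of members, 9.07% of all genes), and Gabarapl2 and Epg5 were higher (5.41% of members, 8.67% of all genes). With 3 libraries against 4, the smallest p an exact permutation test of a single gene can give is 0.0286. With 3posI left out, non-overlap was more frequent for all genes, at 28.7% (13.8% higher and 14.9% lower in old), and 11 of the 37 members did not overlap, 3 higher and 8 lower.

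**Figure D1:**
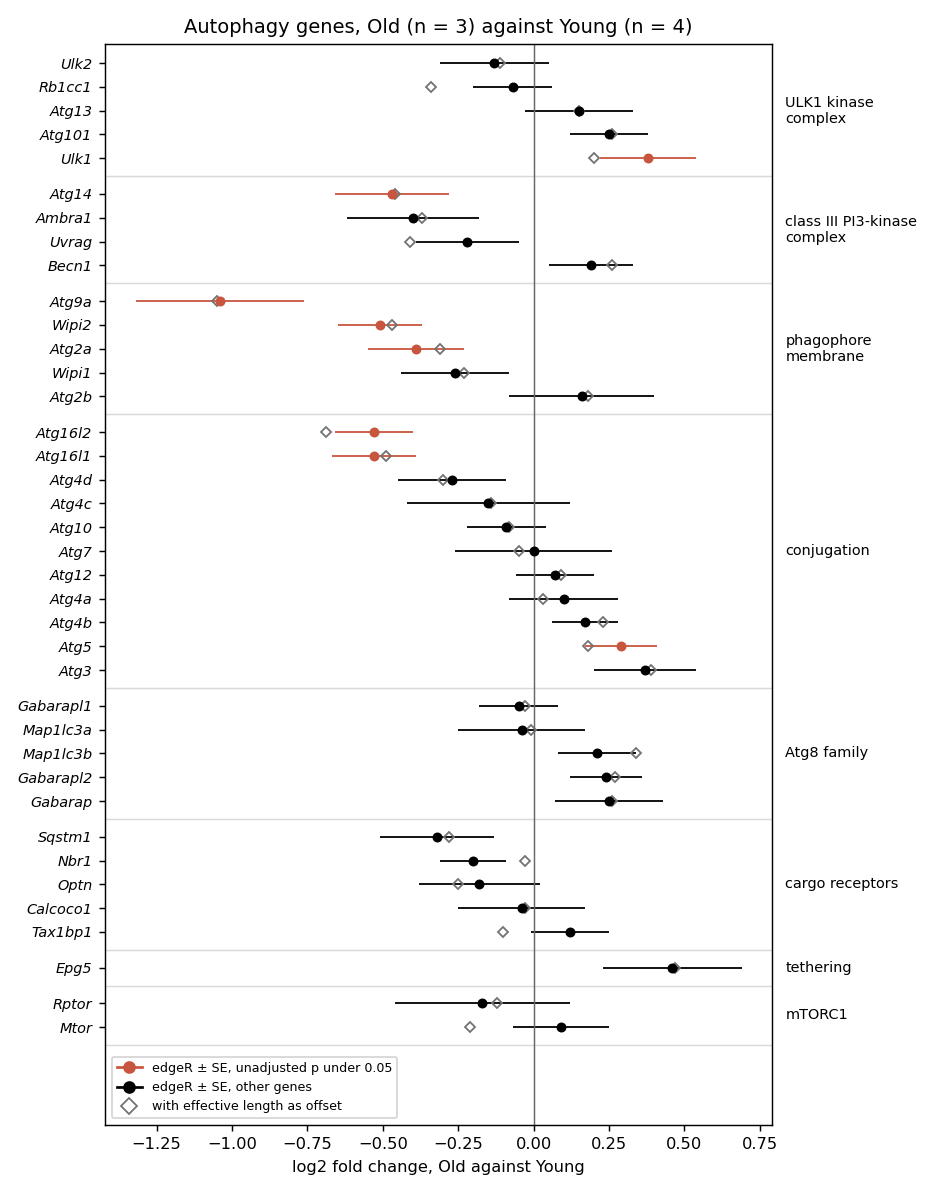
Log2 fold change of each of the 38 genes, 3 old against 4 young libraries, grouped by role. Circles and bars are edgeR estimates ± SE (red where the unadjusted p was under 0.05), and open diamonds are the estimates with effective transcript length as an offset. Atg9a lay at -1.04 and no other member lay beyond -0.53 or 0.46. Atg4a comes from the fit with chromosomes X, Y and M kept.

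Levels differed widely between the members. Per transcript length, Gabarap was the most abundant, at 636 ± 92.3 TPM in young (SD, n = 4) and 701 ± 141 TPM in old (SD, n = 3). Sqstm1, which encodes p62, followed at 599 ± 80.3 TPM in young and 464 ± 141 TPM in old. Map1lc3b, an LC3 gene, stood at 216 ± 12.2 TPM in young and 254 ± 15.7 TPM in old, and its 7 libraries all lay below the lowest Sqstm1 value and above the highest Gabarapl2 value. At the other end, the large lipid transfer protein gene Atg2b stood at 1.72 ± 0.523 TPM in young and 1.81 ± 0.289 TPM in old, and Epg5, a tether between autophagosomes and lysosomes, at 0.838 ± 0.217 TPM and 1.09 ± 0.172 TPM. Of the 37 neighbouring pairs in the order of mean TPM, only 4 had ranges that did not overlap across the 7 libraries: Sqstm1 and Map1lc3b, Map1lc3b and Gabarapl2, Tax1bp1 and Atg4b, and Ambra1 and Atg2b. The summed level of all 38 genes was 2248 to 2690 TPM in young libraries and 2166 to 2572 TPM in old ones, which overlapped.

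**Figure D2:**
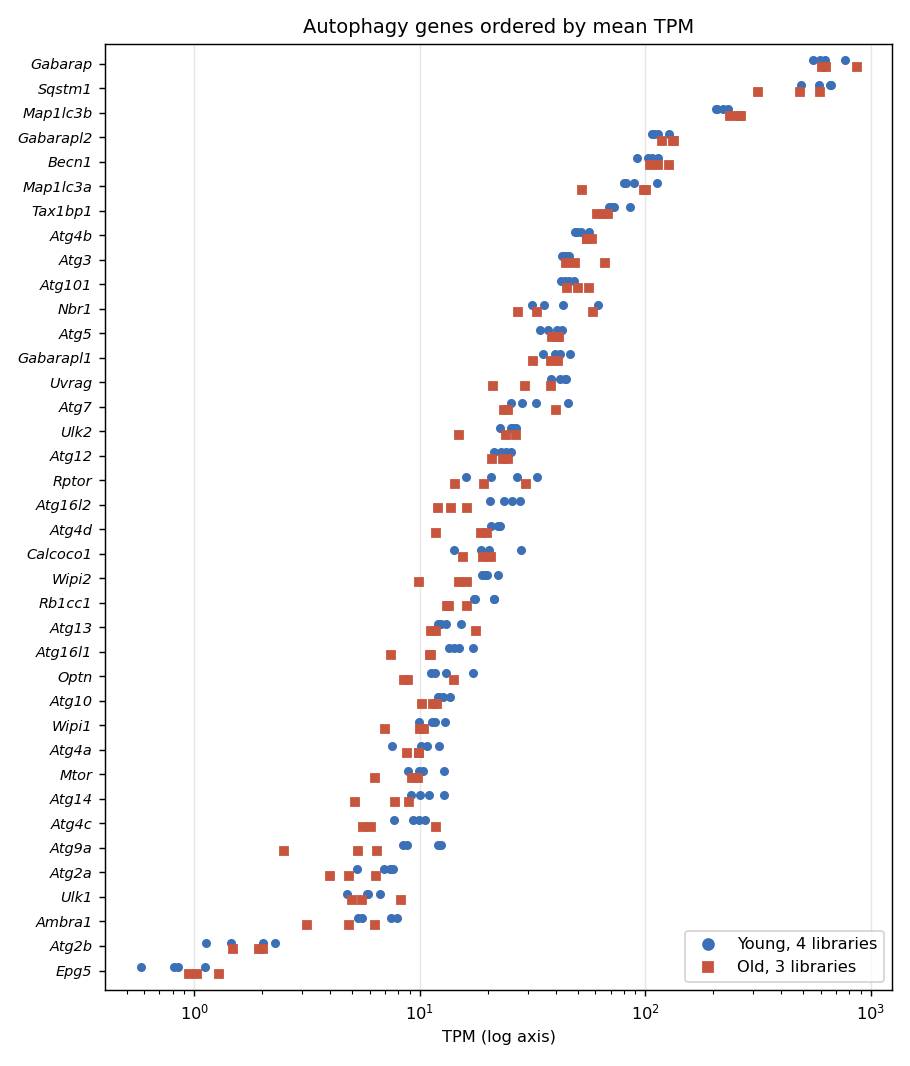
TPM of the 38 genes in each library on a log axis, ordered by mean TPM. Circles are the 4 young and squares the 3 old libraries. Gabarap and Sqstm1 lie highest, Atg2b and Epg5 near 1 TPM, and most neighbours in the order share part of their range.

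The 5 genes of the ULK1 kinase complex, the starter of autophagosome formation, had a median log2 fold change of 0.15, with 3 above and 2 below 0. Ulk1 (ENSMUSG00000029512, chr5:110784488-110810097, minus strand), the kinase itself, measured 17.9, 13.8, 12.9 and 14.8 CPM in young libraries and 17.2, 18.2 and 22.6 CPM in old ones. The young library 14C lay inside the old range and the other young libraries below it. The log2 fold change was 0.38 ± 0.16 (SE), with an unadjusted p of 0.0471 and an adjusted p of 0.258 in edgeR's test. Atg101 (ENSMUSG00000037204, chr15:101284272-101290945, plus strand), a small subunit that stabilises ATG13, was the most abundant of the complex at 45.1 ± 2.61 TPM in young (SD, n = 4) and 50.3 ± 5.53 TPM in old (SD, n = 3). It measured 37.1, 34.7, 38.5 and 43.7 CPM in young and 43.4, 52.1 and 41.5 CPM in old libraries, which overlapped. The scaffold genes Atg13 and Rb1cc1 had log2 fold changes of 0.15 ± 0.18 and -0.07 ± 0.13, and Ulk2, the second kinase gene, -0.13 ± 0.18.

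Of the 4 genes of the Beclin 1 lipid kinase complex, 3 had a log2 fold change below 0, with a median of -0.31. Atg14 (ENSMUSG00000037526, chr14:47540893-47570649, minus strand), which directs the kinase to sites of autophagosome formation, measured 26.8, 30.2, 21.9 and 26.1 CPM in young and 21.5, 13.8 and 21.4 CPM in old libraries. The ages did not overlap, but 23C of the young lay within 1 CPM of 2posI and 4posI, and 3posI stood below all others. The log2 fold change was -0.47 ± 0.19 (unadjusted p = 0.035, adjusted p = 0.225, edgeR), and -0.29 without 3posI. Becn1 (ENSMUSG00000035086, chr11:101285952-101302286, minus strand), which encodes Beclin 1, went the other way, with 122, 107, 123 and 142 CPM in young and 150, 151 and 122 CPM in old libraries. Those ranges overlapped, and the log2 fold change was 0.19 ± 0.14. Of the 7065 exonic bases of Becn1, 3104 also belong to exons of Cntd1 on the opposite strand, and reads of these non-stranded libraries cannot be split by strand between the 2 genes there. Uvrag, whose product serves later endosomal steps, and Ambra1, a regulator of Beclin 1, had log2 fold changes of -0.22 ± 0.17 and -0.40 ± 0.22.

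The group that expands the phagophore membrane had the lowest median, -0.39 over 5 genes, with 4 of them below 0 and 3 of the 5 at an unadjusted p under 0.05, all lower in old, where 18.9% of all genes reached that p and 8.79% were lower with it. A group of 5 is too small to read a share from. Atg9a (ENSMUSG00000033124, chr1:75180860-75192196, minus strand), an integral membrane protein and lipid scramblase, measured 30, 29.3, 21.5 and 24.7 CPM in young and 7.06, 15.1 and 16.2 CPM in old libraries. The highest old value was well under the lowest young value, and 2posI was below 10 CPM. The log2 fold change of -1.04 ± 0.28 was the largest of the 37 (unadjusted p = 0.00526, adjusted p = 0.118, edgeR), and it lay between -1.25 and -0.75 when each library was left out in turn, the smallest without 2posI. Part of the Atg9a locus is shared, since 1832 of its 5762 exonic bases also belong to the transcript Gm29253 on the same strand.

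Wipi2 (ENSMUSG00000029578, chr5:142627698-142670588, plus strand), which reads phosphatidylinositol 3-phosphate and recruits ATG16L1, was the most abundant gene of the group, at 20.1 ± 1.42 TPM in young (SD, n = 4) and 13.6 ± 3.32 TPM in old (SD, n = 3). It measured 46.8, 50.4, 44.7 and 49.4 CPM in young and 27, 36.5 and 37.2 CPM in old libraries. The ages were separated by a gap of several CPM, with 2posI again lowest. The log2 fold change was -0.51 ± 0.14 (unadjusted p = 0.00567, adjusted p = 0.121, edgeR). Atg2a (ENSMUSG00000024773, chr19:6241668-6262335, plus strand), a lipid transfer protein gene, measured 28.2, 27.3, 22.9 and 20.2 CPM in young and 16.7, 21.4 and 18.2 CPM in old libraries. Here 3posI exceeded 29C, so the ages overlapped, and the log2 fold change was -0.39 ± 0.16 (unadjusted p = 0.0399, adjusted p = 0.24, edgeR). Its paralog Atg2b had a log2 fold change of 0.16 ± 0.24, and Wipi1, a paralog of Wipi2, -0.26 ± 0.18.

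**Figure D3:**
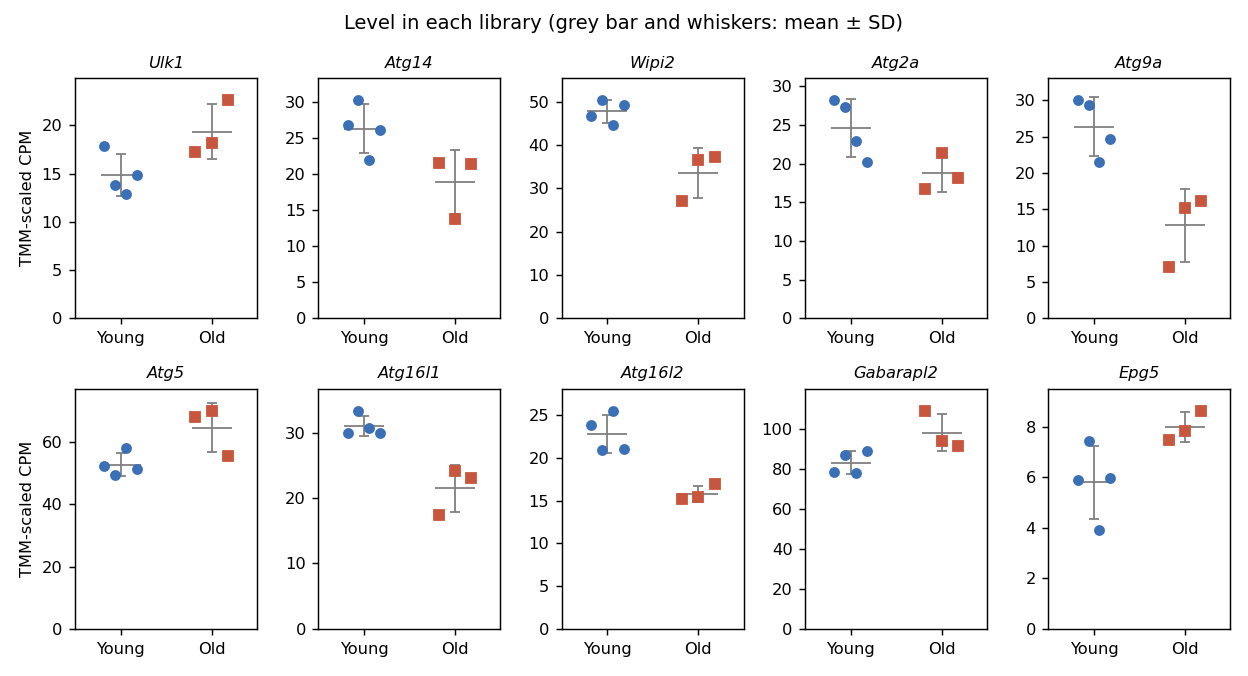
CPM of the 8 autophagy genes with an unadjusted p under 0.05 and of Gabarapl2 and Epg5, whose ages did not overlap. Circles are the 4 young and squares the 3 old libraries, and grey bars with whiskers are the mean ± SD. Old libraries lie below all young ones for Atg14, Wipi2, Atg9a, Atg16l1 and Atg16l2.

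The conjugation genes were split, 5 of the 10 tested above 0 (Atg7 only marginally) and 5 below, with a median of -0.04. The lower side held the scaffold genes. Atg16l1 (ENSMUSG00000026289, chr1:87755870-87792428, plus strand), which places the ATG12 to ATG5 conjugate on the membrane and so sets where LC3 is attached, measured 30, 33.3, 30.7 and 30 CPM in young and 17.4, 24.1 and 23 CPM in old libraries. Young libraries lay close together and all old ones below them, for a log2 fold change of -0.53 ± 0.14 (unadjusted p = 0.00512, adjusted p = 0.116, edgeR). Its paralog Atg16l2 (ENSMUSG00000047767, chr7:101263034-101302251, minus strand) measured 23.8, 20.9, 25.5 and 21.1 CPM in young and 15.2, 15.4 and 16.9 CPM in old libraries. The 3 old values were nearly equal and below every young one, and the log2 fold change of -0.53 ± 0.13 had the smallest p of all members (unadjusted p = 0.00332, adjusted p = 0.0973, edgeR). It was also the steadiest of the lower genes, between -0.58 and -0.47 when each library was left out.

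On the higher side of the conjugation genes stood the ATG12 acceptor and the enzyme that transfers LC3 to lipid. Atg5 (ENSMUSG00000038160, chr10:44268358-44364291, plus strand) measured 52.3, 49.3, 58 and 51.4 CPM in young and 68.2, 70 and 55.5 CPM in old libraries. The old library 4posI lay below the young library 23C, and the log2 fold change was 0.29 ± 0.12 (unadjusted p = 0.0424, adjusted p = 0.246, edgeR). Atg3, the E2-like enzyme that hands LC3 to lipid, had a log2 fold change of 0.37 ± 0.17, and of 0.16 without 3posI, its highest library at 105 CPM against 60.4 to 79.6 CPM in the others. Atg4b (ENSMUSG00000026280, chr1:93751500-93790610, plus strand), the main protease that primes LC3, was the most abundant of the group at 51.5 ± 3.38 TPM in young (SD, n = 4) and 56.1 ± 1.59 TPM in old (SD, n = 3). It measured 43.4, 48.5, 41.3 and 44.3 CPM in young and 52.1, 48.2 and 49 CPM in old libraries, with 18C inside the old range and a log2 fold change of 0.17 ± 0.11.

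The E1-like enzyme gene Atg7 had a log2 fold change of 0.00 ± 0.26, with 43.6 to 78.4 CPM in young and 44.2 to 82.8 CPM in old libraries. Atg12, the ubiquitin-like protein joined to ATG5, had 0.07 ± 0.13 and Atg10, the enzyme that joins it, -0.09 ± 0.13. The proteases Atg4c and Atg4d had -0.15 ± 0.27 and -0.27 ± 0.18, and 2posI was the lowest library for Atg4d at 16.5 CPM against 26.7 to 30.1 CPM in the other 6. Atg4a measured 13.4, 10.4, 14 and 16.2 CPM in young and 16.5, 14.6 and 12.5 CPM in old libraries, which overlapped. Its log2 fold change in the fit with chromosome X kept was 0.10 ± 0.18 (unadjusted p = 0.583, adjusted p = 0.795, edgeR).

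The 5 genes of the Atg8 family, whose products coat the autophagosome, had a median log2 fold change of 0.21, and none had an unadjusted p under 0.05. Gabarapl2 (ENSMUSG00000031950, chr8:111940703-111953612, plus strand) measured 78.3, 87.2, 77.8 and 88.8 CPM in young and 109, 93.8 and 91.7 CPM in old libraries. All old libraries were above all young ones, by a small margin, and the log2 fold change was 0.24 ± 0.12 (unadjusted p = 0.0665, adjusted p = 0.301, edgeR). Gabarap (ENSMUSG00000018567, chr11:69991143-69994951, plus strand) measured 370, 377, 466 and 368 CPM in young and 447, 589 and 373 CPM in old libraries. The young library 23C stood apart from the other young libraries and above 2 of the 3 old ones, and the log2 fold change was 0.25 ± 0.18. Map1lc3b had 0.21 ± 0.13, Map1lc3a -0.04 ± 0.21 and Gabarapl1 -0.05 ± 0.13.

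Of the 5 cargo receptor genes, 4 had a log2 fold change below 0, with a median of -0.18, and none had an unadjusted p under 0.05. Sqstm1 (ENSMUSG00000015837, chr11:50199366-50210827, minus strand) measured 882, 765, 891 and 711 CPM in young and 489, 709 and 756 CPM in old libraries. The library 2posI was far below the rest and 4posI lay inside the young range, so the ages overlapped. The log2 fold change was -0.32 ± 0.19 (unadjusted p = 0.123, adjusted p = 0.388, edgeR), and -0.15 without 2posI. Nbr1 (ENSMUSG00000017119, chr11:101552149-101581951, plus strand), a ubiquitin receptor that acts with p62, measured 76, 79.7, 69.8 and 65.4 CPM in young and 59.9, 62 and 67.9 CPM in old libraries, and only 4posI reached into the young range. Its log2 fold change was -0.20 ± 0.11 (unadjusted p = 0.115, adjusted p = 0.378, edgeR). Optn, a receptor for mitochondria and bacteria, had -0.18 ± 0.20, Calcoco1, a receptor for the endoplasmic reticulum, -0.04 ± 0.21 and Tax1bp1, a receptor for protein aggregates, 0.12 ± 0.13.

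The tether gene Epg5 (ENSMUSG00000039840, chr18:77938465-78035013, plus strand) measured 5.89, 7.43, 3.92 and 5.96 CPM in young and 7.48, 7.82 and 8.62 CPM in old libraries. The ages did not overlap, but 18C and 2posI were almost equal, and the log2 fold change was 0.46 ± 0.23 (unadjusted p = 0.0777, adjusted p = 0.319, edgeR). Of the mTORC1 subunits, Rptor (ENSMUSG00000025583, chr11:119602905-119899576, plus strand), which binds the substrates of the kinase, measured 100, 116, 55.4 and 85.6 CPM in young and 85.6, 51.3 and 101 CPM in old libraries. The spread within each age was wide, and the log2 fold change was -0.17 ± 0.29. The kinase gene Mtor had 0.09 ± 0.16 in counts.

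**Figure D4:**
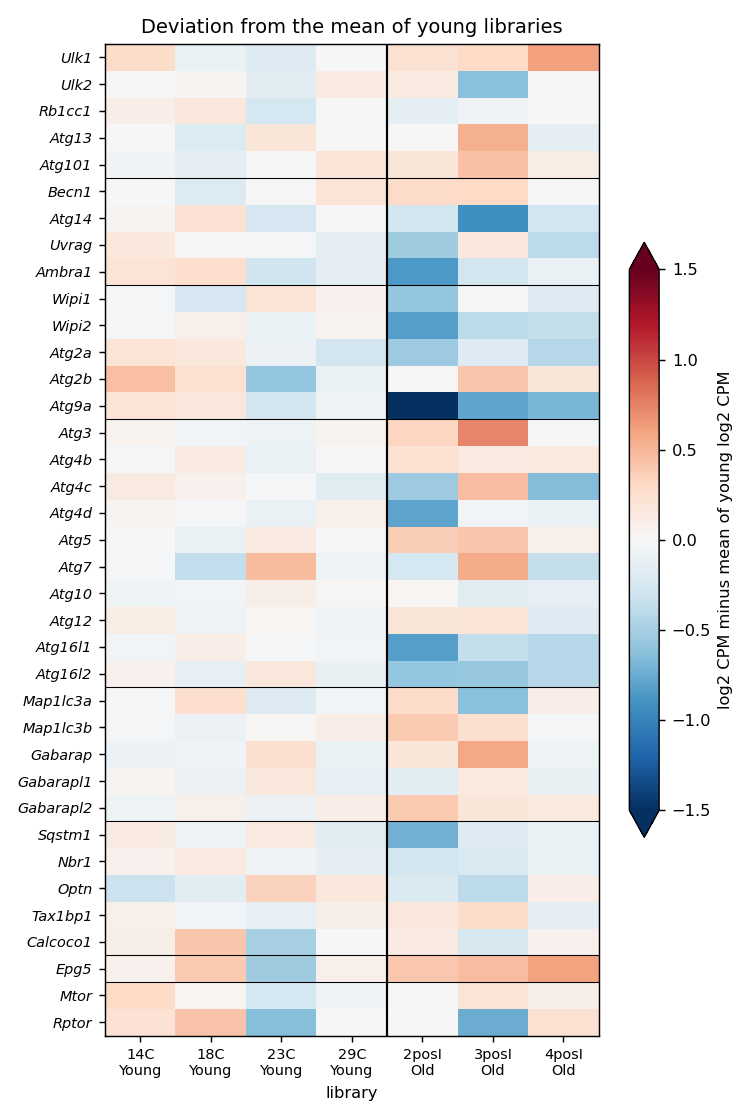
Log2 CPM of the 37 autosomal members in each library minus the mean of the young log2 CPM, with the members grouped by role and the vertical line between young and old. Blue is lower and red higher than the young mean. Of the 7 libraries, 2posI was lowest for 12 members and 3posI was highest for 11.

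The 3 old libraries did not share 1 pattern across the members. The library 2posI was the lowest of the old libraries for 17 members and 3posI the highest for 18. Among all 7 libraries, 2posI was lowest for 12 members, including Atg9a, Wipi2, Atg16l1, Atg16l2, Atg4d and Sqstm1, and 3posI was highest for 11, including Atg3, Atg7, Atg13, Atg101 and Gabarap. The median deviation of the 37 members from the young mean was -0.01 in 2posI, 0.12 in 3posI and -0.10 in 4posI on the log2 CPM scale. The summed microglia and border macrophage and monocyte markers that set 3posI apart are given above. Their part in the members' values was not tested beyond the fits without that library.

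On the TPM scale, which divides by the transcript length estimated in each library, more members separated the ages. The ages did not overlap in TPM for 10 of the 38 members, where 17.5% of all genes did not overlap. Of these, 9 were lower in old (Rb1cc1, Atg14, Wipi2, Atg9a, Atg4d, Atg10, Atg16l1, Atg16l2 and Tax1bp1), on a scale on which 11.2% of all genes were lower without overlap and 6.26% higher. The single higher one was Map1lc3b. The median log2 fold change of log2(TPM + 1) was -0.17 over the 37 autosomal members and -0.07 over all genes. With a pseudocount of 0.1 in place of 1 these medians were -0.18 and -0.13, so a part of the members' shift on this scale was shared by all genes. No member had an adjusted p under 0.05 by limma with either pseudocount.

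The scales differ in how libraries are scaled, by TMM for CPM and to a fixed total for TPM, and in transcript length. Atg10 did not overlap between ages in TPM but did in CPM, although its length was 1609 bases in all 7 libraries. RSEM reports the length of each gene as the mean of its transcripts weighted by their abundance. This length varied between libraries for 31 of the 38 members and for 66.6% of all genes. Of the 31 members, 6 had lengths that did not overlap between ages (19.4%, equal to 19.4% of all genes whose length varied). It was longer in old libraries for Ulk1, Rb1cc1, Uvrag, Atg5 and Tax1bp1, which is 16.1% of the members whose length varied against 13% of all such genes, and shorter for Map1lc3b (6.34% of all such genes). Ulk1 transcripts averaged 3800, 3451, 3908 and 3326 bases in young and 4269, 4214 and 3934 bases in old libraries, 1.14 times the young mean. Rb1cc1 transcripts averaged 2503 ± 138 bases in young (SD, n = 4) and 3037 ± 198 bases in old (SD, n = 3). Map1lc3b transcripts averaged 1617 ± 51.8 bases in young and 1496 ± 31.2 bases in old.

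Taking these lengths into the edgeR fit as an offset moved the members whose length differed most. The log2 fold change of Ulk1 went from 0.38 to 0.20 and that of Atg5 from 0.29 to 0.18. In log2(TPM + 1) Ulk1 and Atg5 stood at 0.08 and 0.07, with TPM that overlapped between ages. Rb1cc1 went from -0.07 to -0.34 with the offset, Uvrag from -0.22 to -0.41 and Map1lc3b from 0.21 to 0.34. Tax1bp1 and Mtor changed sign, from 0.12 to -0.10 and from 0.09 to -0.21. The lower values of Atg9a, Wipi2, Atg16l1, Atg16l2 and Atg14 held their direction, at -1.05, -0.47, -0.49, -0.69 and -0.46. The members' median in this fit was -0.08, beside -0.02 over all genes. Still no member passed the adjusted threshold, the smallest adjusted p being 0.0943. The weights behind these lengths are estimates from short reads shared between isoforms, and no file gives their error.

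**Figure D5:**
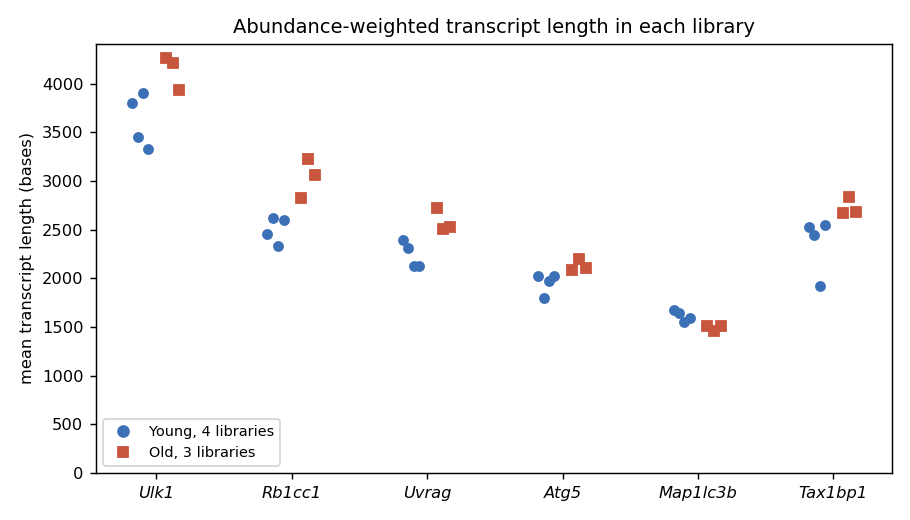
Abundance-weighted mean transcript length, in bases, of the 6 members whose lengths did not overlap between ages. Circles are the 4 young and squares the 3 old libraries. Lengths were greater in old libraries for Ulk1, Rb1cc1, Uvrag, Atg5 and Tax1bp1, and smaller for Map1lc3b.

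The DESeq2 Wald test, run as an alternative, gave 4 members an adjusted p under 0.05, all lower in old: Atg16l2 (0.00967), Atg9a (0.0116), Atg16l1 (0.0238) and Wipi2 (0.0295). It gave one to 9.07% of the 15431 genes it could adjust, 4.82% higher and 4.24% lower in old. On counts simulated for this comparison over 17559 genes, of which 200 were changed, 25.7% of its calls were false, against 4.17% for edgeR. A share of false calls depends on how many genes change, and DESeq2 called 1399 genes in the data. The simulated share therefore does not tell whether the 4 members' calls are false. In the same simulation edgeR recovered 46% of 2-fold and 92% of 4-fold changes. All but 4 of the 37 members had estimates within 0.5 of 0 on the log2 scale. Of those 4 only Atg9a, at -1.04, reached a size that was simulated. Recovery of smaller changes was not simulated.

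The promoters were searched for the 6-base core CACGTG, the letters bound by the MiT transcription factors TFEB and TFE3, which drive many genes of autophagy and lysosomes. The core reads the same on both strands. RefSeq promoter windows of 250 bases before to 50 after the start site were found for 32 of the 38 members, and 4 of these genes held the core (12.5%, against 8.09% of 27025 genes). The 32 genes had 36 windows, and a gene counted if any of its windows held the core. They were Atg3, Atg5, Atg7 and Atg14, of which Atg3, Atg5 and Atg7 act in the conjugation steps. Atg3 held it in the longer form TCACGTGA, which 1.12% of all genes held and which contains the core. The stretches below are from RefSeq on GRCm38.p6. Shown are cores that lay, with their printed flanks, wholly in the part of the window before the start site. Atg3 had 2 such cores within a short span and Atg7 had 1, while Atg5 and Atg14 had none. Each core is in capitals, for the plus strand at chr16:45158723-45158775 (Atg3) and chr6:114670952-114670981 (Atg7).
Atg3: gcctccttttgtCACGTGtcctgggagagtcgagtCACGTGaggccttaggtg
Atg7: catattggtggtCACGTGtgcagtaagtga

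The cores of Atg3 begin 94 and 71 bases before the start site. That of Atg7 begins 132 bases before a RefSeq start site that lies inside the gene, which spans chr6:114643097-114860614. It is therefore not at the first base of that gene. The log2 fold changes of the 4 genes with the core were 0.37 for Atg3, 0.29 for Atg5, 0.00 for Atg7 and -0.47 for Atg14, so they did not share a direction. The 27 autosomal members whose windows lacked the core had a median of -0.13. A match of letters is a description of the window only. Rb1cc1, Becn1, Atg12, Atg16l1, Map1lc3a and Epg5 had no entry.

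Of 84 further genes that act around this machinery, 80 were autosomal and tested, and none reached an adjusted p under 0.05 by edgeR. At an unadjusted p under 0.05 there were 17 (21.2%, against 18.9% of all genes). Of these 11 were higher in old (13.8%, against 10.1% of all genes) and 6 lower (7.5%, against 8.79%). The median log2 fold change of the 80 was 0.00. In DESeq2 6 of the 80 passed the adjusted threshold (7.5%, below the 9.07% of all genes): Cyba, Flcn, Lamtor5, Prkaa2, Vamp8 and Vps18.

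The list of mTORC1 and amino acid sensing holds both genes that activate mTORC1, such as Rheb and the Ragulator genes, and genes that inhibit it, such as Tsc1, Tsc2, Nprl2 and the sestrins, so its direction says nothing of mTORC1 activity. Of its 24 genes 18 were above 0, with a median of 0.16, where 51.2% of all genes were below 0. An unadjusted p under 0.05 by edgeR was reached by 8 (33.3%, against 18.9% of all genes). Of these 6 were higher in old (25% of the list, 10.1% of all genes). Lamtor5, a subunit of the Ragulator complex that anchors Rag GTPases to lysosomes, had a log2 fold change of 0.47 ± 0.13 (unadjusted p = 0.00676, adjusted p = 0.126, edgeR). Flcn, which encodes folliculin, a regulator of the Rag GTPases, had -0.54 ± 0.16 (unadjusted p = 0.00827, adjusted p = 0.133, edgeR). The other Ragulator genes, singled out after their values were seen, had 0.36 (Lamtor1), 0.43 (Lamtor2), 0.25 (Lamtor3) and 0.16 (Lamtor4), and without 3posI these were 0.17, 0.39, 0.04 and 0.17.

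Genes of autophagosome fusion with lysosomes had a median of -0.10 over 14 genes. Vamp8, a SNARE of the lysosomal membrane, had 0.52 ± 0.14 (unadjusted p = 0.00604, adjusted p = 0.123, edgeR), and Vps18, a core subunit of the HOPS tethering complex, had -0.67 ± 0.19 (unadjusted p = 0.00702, adjusted p = 0.128, edgeR). These are both in the final step, with opposite signs. The genes that accompany the lipid kinase and the phagophore had a median of -0.13 over 9, with Wdr45b, a further WIPI gene, at -0.23 ± 0.10 and Rubcn, which encodes the inhibitor Rubicon, at -0.22 ± 0.11.

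The selective receptors had a median of -0.01 over 15 genes, with Pink1, a kinase that flags damaged mitochondria, at -0.60 ± 0.20 (unadjusted p = 0.0166, adjusted p = 0.171, edgeR) and Stbd1, a receptor for glycogen, at -0.43 ± 0.26. AMPK genes had a median of -0.04 over 8. Among these Prkaa2, a catalytic subunit, had 2.02 ± 0.56 (unadjusted p = 0.00606, adjusted p = 0.123, edgeR) at a very low level of 0.0725 TPM in young and 0.28 TPM in old, and Camkk2, an upstream kinase, had -0.13 ± 0.14. Of the transcription factors tested, Foxo3 had 0.23 ± 0.15 and Tfeb -0.15 ± 0.12, with a median of -0.12 over 5. Tfe3, on chromosome X and taken from the fit that kept it, had -0.47 ± 0.14 (unadjusted p = 0.0103, adjusted p = 0.146, edgeR), with 165, 175, 128 and 141 CPM in young and 107, 102 and 120 CPM in old libraries. The ages did not overlap.

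Genes of LC3-associated phagocytosis, which encode the NADPH oxidase that leads LC3 onto phagosomes, had a median of 0.29 over 5, with 4 above 0 and 1 below. The 1 below was Ncf1, a cytosolic subunit, at -0.19 ± 0.12, with 390, 410, 349 and 390 CPM in young and 333, 332 and 347 CPM in old libraries, which did not overlap. Cyba, its small membrane subunit, had 0.54 ± 0.18 (unadjusted p = 0.0139, adjusted p = 0.163, edgeR), and Ncf4, a further cytosolic subunit, had 0.63 ± 0.21 (unadjusted p = 0.0147, adjusted p = 0.165, edgeR). Cybb, the catalytic subunit on chromosome X, measured 113, 87, 170 and 155 CPM in young and 216, 352 and 202 CPM in old libraries, for a log2 fold change of 0.97 ± 0.27 (unadjusted p = 0.00678, adjusted p = 0.128, edgeR). Its highest value was in 3posI, the library with the high monocyte markers. Without that library the log2 fold changes were 0.67 for Cybb, 0.42 for Cyba and 0.33 for Ncf4.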

How the data were processed

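The authors ran FastQC 0.11.5 and adapter trimming, then STAR against GRCm38, and used RSEM with GENCODE genes for quantification. Per the file headers, the deposited tables give, for each gene and library, an expected count, a TPM value, a transcript length and an effective length. The FPKM column was not used. Libraries were made by a non-stranded SMART-seq2 protocol, so reads of overlapping genes on opposite strands cannot be told apart by strand. Besides Becn1, this touches other members. Among them, Atg4d shares 1405 of 7264 exonic bases with Kri1 and Uvrag 1589 of 9035 with Gm45187. Sqstm1 shares 580 of 3356 with Mrnip and Gabarapl1 570 of 2013 with 1700101I11Rik.

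The deposited expected counts were rounded. Kept were genes over 10 expected counts in 1 or more libraries, without the 614 on chromosomes X, Y and M, as in the study's methods. Counts were scaled by TMM and tested with edgeR 4.0.16 (quasi-likelihood F test, R 4.3.3), Old against Young, with Benjamini-Hochberg adjustment over the 17559 genes and a threshold of 0.05. The biological coefficient of variation was 37.2%. Levels between genes were compared in TPM, which the authors computed per transcript length. SE is the size of the log2 fold change divided by the square root of F. The test was checked on simulated counts. Alternatives were limma-voom (limma 3.58.1), DESeq2 1.42.0, other scalings, filters and units, length and GC trends, and each library left out. Tables and figures were made in Python 3.11.15 with matplotlib 3.10.9. Coordinates are those of GENCODE on GRCm38.

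The members and lists were chosen with earlier results of these data known. Values of every library are given for members with an unadjusted p under 0.05 and, in each role, for the member with the smallest p and the member with the highest mean TPM, and of every other list the genes with the 2 smallest p are named. Atg4a is given in full as the X-linked member. Tfe3, Cybb, Ncf1 and the Lamtor genes other than Lamtor5 were added after their values were seen.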

Additional observations from a re-analysis of the deposited data

Results flagged for a closer look

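Among the young libraries, 23C stood apart for Gabarap, at 466 CPM against 368 to 377 CPM in the other 3. The gap to its nearest neighbour was 0.905 of the whole young range, above the 95% critical value of Dixon's test for 4 samples. Of the 38 members examined in this way 1 passed, where chance alone gives about 1.9.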

How the results depend on the processing

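No member passed the adjusted threshold under any alternative other than DESeq2, which gave 4 members and 6 of the 80 autosomal further genes. With chromosome X kept, the DESeq2 Wald test also gave the X-linked Tfe3 and Cybb adjusted p of 0.0435 and 0.0186. Members without overlap between ages numbered 8 to 15 of 37 when 1 library was left out, while the share of all genes without overlap was 20.5% to 31.7%. Both were highest without 4posI, where the 15 members were 8 higher and 7 lower in old. The lean to lower values among such members was therefore not kept in that fit. The members' median log2 fold change was -0.17 with log2(TPM + 1) and -0.18 with log2(TPM + 0.1). Over all genes, the 141 calls became 1399 with DESeq2, 286 without the filter on low counts, 213 with effective length as offset, 64 and 71 with log2(TPM + 1) and log2(TPM + 0.1), and 1 to 159 with 1 library left out (1 without 2posI, 14C or 18C, 2 without 29C, 14 without 23C and 85 without 4posI). The share of calls higher in old was 70.9%, but 53.2% with DESeq2, 54.9% without the filter, 50% and 47.9% in TPM, 81.5% with the GC trend removed and 50.6% without 4posI.

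Atg7, at 0.00, had no direction to keep: other tools, scalings and filters gave -0.17 to 0.14, below 0 in 6 of 12, and leaving out 1 library gave -0.34 (without 3posI) to 0.19, below 0 in 4 of 7. Of 432 refits of the other members by other tools, scalings and filters, 14 changed sign, in 8 genes. Those were, with the length trend removed, Rb1cc1 (0.05), Atg2b (-0.13), Gabarapl1 (0.01) and Calcoco1 (0.08), with the GC trend removed, Map1lc3a (0.28) and Calcoco1 (0.11), with effective length as offset, Tax1bp1 (-0.10) and Mtor (-0.21), and in log2(TPM + 1) and log2(TPM + 0.1), Atg12 (-0.03 in both), Tax1bp1 (-0.20 in both) and Mtor (-0.29 and -0.32). Atg4a went to -0.07 in both TPM fits. The cause was not tested. Of 252 refits of these with 1 library left out, 11 changed sign, in 7 genes: Ulk2 (-0.27 to 0.07), Atg13 (-0.08 to 0.28), Atg4c (-0.60 to 0.04), Map1lc3a (-0.23 to 0.18), Gabarapl1 (-0.15 to 0.01), Calcoco1 (-0.19 to 0.11) and Rptor (-0.39 to 0.06). CPM per kilobase of effective length orders the members as TPM does by construction, so it was no check of that order. No paired analysis was possible because the labels give each library its own identifier and no replicate number shared between ages.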
